A study of Mus musculus with 12 samples.

Results

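Satellites are short DNA units repeated head to tail, and in the mouse the major and minor satellites lie around and at the centromeres. Satellites were taken here as every repeat row of the deposited count table with the repeat class Satellite, wherever the copy lies. This gave 36695 genomic copies of 5138235 repeat copies (0.714%) and 8 of 1554 repeat names, called subfamilies below. The major satellite was GSAT_MM with 44 copies, the minor satellite was taken as SYNREP_MM with 74 copies, and the other 6 subfamilies held 36577 copies. SYNREP_MM was assigned by convention on its name and not by sequence, because the table pairs its copies with no position. The copies were named by subfamily and number only, so levels could not be compared per length between subfamilies.

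The libraries came from whole testes of C57BL/6 mice at postnatal day 16, when the most advanced germ cells are in meiotic prophase. Mael+/- animals carried a single intact allele of Mael, and Mael-/- animals had none. Mael encodes Maelstrom, a germ cell protein of the piRNA pathway that represses transposons. Total RNA and ribosome footprints, the fragments that ribosomes shield from nuclease, were sequenced from the same extracts. Each combination of genotype and assay had 3 replicates, which gave 12 libraries. All groups shared strain, age, tissue and treatment of the extract with cycloheximide, and the tissue was not sorted into cell types.

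The major satellite forms the pericentromeric heterochromatin of mouse chromosomes and is rich in A and T. The minor satellite lies under the kinetochore and carries the CENP-B box, the site bound by the centromere protein CENP-B. Both are transcribed at low levels into noncoding RNA, and most of their arrays are missing from the genome assembly, so reads can be placed only on the few stretches that were assembled.

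Stretches of the GRCm38 assembly, the build also called mm10, are printed to show what such units look like. They are reference sequence, and it is not known which of the counted copies they match. The first assembled 1000000 bases of each chromosome were searched for tandem repeats with periods of 100 to 300 bases, and chromosome 9 held an array with a period of 234 bases, the unit length known for the major satellite. Neighbouring units are shown because they differ from one another: 219 of 234 bases (93.59%) were the same in chr9:3024001-3024234 and chr9:3024235-3024468, both read from the minus strand. A and T made up 64.96% of the first unit and 62.82% of the second. Neither overlapped a RefSeq gene, and the nearest, Mir101c, lay 14201 bases from the second unit.
Array unit 1: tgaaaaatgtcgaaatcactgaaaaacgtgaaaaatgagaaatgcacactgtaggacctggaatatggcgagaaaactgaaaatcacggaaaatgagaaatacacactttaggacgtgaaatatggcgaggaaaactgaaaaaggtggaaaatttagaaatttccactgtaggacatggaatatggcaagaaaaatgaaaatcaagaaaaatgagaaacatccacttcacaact
Array unit 2: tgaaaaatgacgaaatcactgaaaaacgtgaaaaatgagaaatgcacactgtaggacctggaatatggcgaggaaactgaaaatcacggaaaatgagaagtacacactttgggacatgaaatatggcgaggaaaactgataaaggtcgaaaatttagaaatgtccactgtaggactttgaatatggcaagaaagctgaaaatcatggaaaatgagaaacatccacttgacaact

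The CENP-B box was searched on both strands as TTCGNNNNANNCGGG, where N is any base. It occurred 586 times on the assembled chromosomes. Boxes stood within 300 bases of each other in 3 places, and the largest of these groups held 3 boxes spaced 120 bases apart on chromosome 2. The unit at chr2:98664941-98665060, plus strand, overlapped no RefSeq gene, and the nearest, Gm33780, lay 37539 bases away. It is printed with its box in capitals. Neither unit of the array on chromosome 9 held the motif.
CENP-B box unit: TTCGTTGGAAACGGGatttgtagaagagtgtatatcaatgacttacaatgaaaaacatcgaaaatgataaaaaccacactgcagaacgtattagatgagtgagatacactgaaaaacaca

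Satellites were a small part of the repeat signal. They gave 47476 counts, 34908 in RNA and 12568 in footprints, and took 0.205% to 0.326% of the repeat counts in the RNA libraries and 0.136% to 0.159% in the footprint libraries. Of the 36695 copies, 4454 had at least 1 count. MMSAT4 held 66.4% of the satellite counts in RNA and 57.4% in footprints. IMPB_01 held 22.1% and 24.5%, and ZP3AR held 9.27% and 17.1%. The centromeric satellites were scarce, with 602 RNA counts and 49 footprint counts for GSAT_MM, and 138 and 18 for SYNREP_MM. SUBTEL_sa, a subtelomeric satellite by its name, had 34 RNA counts and 57 footprint counts. MurSAT1 had 3 and 2 counts, and CENSAT_MC had 0 counts in all libraries, which allows a level of up to 0.0217 CPM in the pooled RNA libraries and 0.0508 CPM in the pooled footprint libraries at the limit of 3 counts. CPM here and below means counts in 1000000 gene counts, scaled by the trimmed mean of M-values (TMM) of the genes within each assay.

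Gene totals were 13697267 to 27462358 counts in RNA and 7609932 to 13233565 in footprints, and repeats took 7.65% to 10.2% and 10.8% to 13.6% of all counts. Mael itself was at 144 to 219 CPM in Mael+/- RNA and at most 0.0991 CPM in Mael-/- RNA, as the labels say. Mael+/- extract 1 stood apart: the summed level of 15 pachytene spermatocyte markers was 1102 CPM in its RNA, against 370.2 and 420.8 CPM in the other two Mael+/- libraries and 334.9 to 418.0 CPM in Mael-/- RNA. The summed level of 9 macrophage markers was lowest in Mael+/- RNA 2 (188.8 CPM) and Mael+/- RNA 1 (203.7 CPM), and lay between 293.9 and 313.0 CPM in the others. Of 12 pachytene markers tested in RNA, 11 were lower and 1 higher in Mael-/- (median log2 difference -1.305). All 9 macrophage markers were higher (median 0.379). None of either list was called (edgeR adjusted p under 0.05), beside 0.116% of all 14647 genes. The 9 Leydig cell markers summed to 563.6 to 824.0 CPM in Mael+/- RNA and 550.2 to 848.7 CPM in Mael-/- RNA. The part of these differences in the satellite results was not tested, and in whole testis fewer cells of a type and less RNA per cell cannot be told apart.

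The comparison of genotypes asks whether satellite RNA or its footprints change without Mael. No satellite subfamily passed the test in RNA, in footprints or in their ratio. Among 5 subfamilies tested in RNA 0 were called (edgeR quasi-likelihood test, adjusted p under 0.05), with 1 at an unadjusted p under 0.05. DESeq2 called 0 of 4, and it gave no adjusted p for SYNREP_MM, the subfamily with the unadjusted p under 0.05 in edgeR. Over all repeats 0.898% of 1114 subfamilies were called, and 62 had an unadjusted p under 0.05. In footprints 0 of 3 were called by either tool, with 0 at an unadjusted p under 0.05. Over all repeats 1.82% of 1045 subfamilies were called there, and 78 had an unadjusted p under 0.05. The ratio of footprints to RNA gave 0 of 6 by either tool, with 0 unadjusted, and the background was 0% of 1148, where 36 subfamilies had an unadjusted p under 0.05.

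GSAT_MM, the major satellite, was at 7.02, 0.878 and 2.98 CPM in the 3 Mael+/- RNA libraries and at 10.6, 5.01 and 3.28 CPM in the 3 Mael-/- RNA libraries. The groups overlapped, and the spread within Mael+/- covered most of the range of the data, with replicate 2 far below replicate 1. The mean was 3.63 ± 3.12 CPM (SD, n = 3) in Mael+/- and 6.30 ± 3.84 CPM in Mael-/-. The log2 difference of 0.78 had an SE of 0.51 (edgeR adjusted p = 1). It hinged on single libraries: without Mael+/- RNA replicate 1, the library high in pachytene markers, it was 1.66 with an edgeR adjusted p = 0.00886. Without Mael-/- RNA replicate 1 it was 0.20, and without Mael+/- RNA replicate 2 it was 0.30, neither called.

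SYNREP_MM, taken as the minor satellite, was at 0.477, 0.732 and 0.982 CPM in Mael+/- RNA and at 2.33, 1.239 and 0.875 CPM in Mael-/- RNA. Replicates 1 and 2 of Mael-/- lay above all Mael+/- libraries and replicate 3 lay within them. The log2 difference was 0.94 (SE 0.41, unadjusted p = 0.034, edgeR adjusted p = 0.719), and it stayed between 0.50 and 1.25 when each library was left out. The difference of SYNREP_MM was larger than that of 98.4% of the subfamilies tested and that of GSAT_MM larger than that of 96.4%, on few counts in both. In footprints neither passed the filter on low counts. GSAT_MM footprints were at 1.06, 0.647 and 0.683 CPM against 1.21, 0.698 and 0.475 CPM, and SYNREP_MM footprints at 0.106, 0.129 and 0.293 CPM against 0.378, 0.599 and 0.237 CPM. In these libraries 3 counts were worth 0.227 to 0.388 CPM, so most of these levels rest on a handful of reads.

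None of the abundant satellites was called between genotypes. MMSAT4 RNA was at 208, 97.8 and 202 CPM in Mael+/- and at 202, 185 and 140 CPM in Mael-/-. The Mael+/- library 2 was the lowest of the 6 and the groups overlapped, with a log2 difference of 0.05 (SE 0.24, edgeR adjusted p = 1). IMPB_01 RNA was at 77.1, 45.1 and 56.2 CPM against 56.1, 56.8 and 47.9 CPM (log2 difference -0.15, SE 0.21, edgeR adjusted p = 1). ZP3AR varied least of the 3, at 22.8, 23.4 and 22.1 CPM against 26.9, 22.3 and 24.3 CPM (log2 difference 0.10, SE 0.19, edgeR adjusted p = 1). The 95% interval of the difference ran from -0.47 to 0.57 for MMSAT4, from -0.60 to 0.30 for IMPB_01 and from -0.31 to 0.51 for ZP3AR. With 3 libraries a group, any difference inside these intervals remained compatible with the data.

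In footprints the replicates were tighter. MMSAT4 was at 127, 103 and 113 CPM in Mael+/- and 126, 124 and 136 CPM in Mael-/-. IMPB_01 was at 48.1, 51.0 and 39.4 CPM in Mael+/- and 58.7, 54.0 and 61.5 CPM in Mael-/-. Its log2 difference was 0.33 (SE 0.19, edgeR adjusted p = 0.824), beside a median of 0.13 over all subfamilies tested. With libraries scaled by repeat counts in place of gene counts, the difference of IMPB_01 was 0.20 (edgeR adjusted p = 0.643). ZP3AR was at 36.9, 37.4 and 31.8 CPM against 38.8, 37.4 and 35.5 CPM, and its log2 difference of 0.08 was below that median.

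The summed footprint level of all satellites was 214, 193 and 186 CPM in Mael+/- and 225, 219 and 235 CPM in Mael-/-. The groups did not overlap, and the exact two-sided permutation test gave p = 0.1, the smallest that 3 against 3 libraries allow. Relative to repeat counts in place of gene counts, the same exact permutation test gave p = 0.5. Repeats as a whole took 10.8% to 12.6% of all counts in Mael+/- footprints and 12.4% to 13.6% in Mael-/- footprints. In RNA the sums were 316, 168 and 284 CPM against 298, 270 and 216 CPM and overlapped (exact permutation p = 0.9). The sum of the major satellite in RNA gave an exact permutation p = 0.4 and that of the minor satellite p = 0.2.

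**Figure D1:**
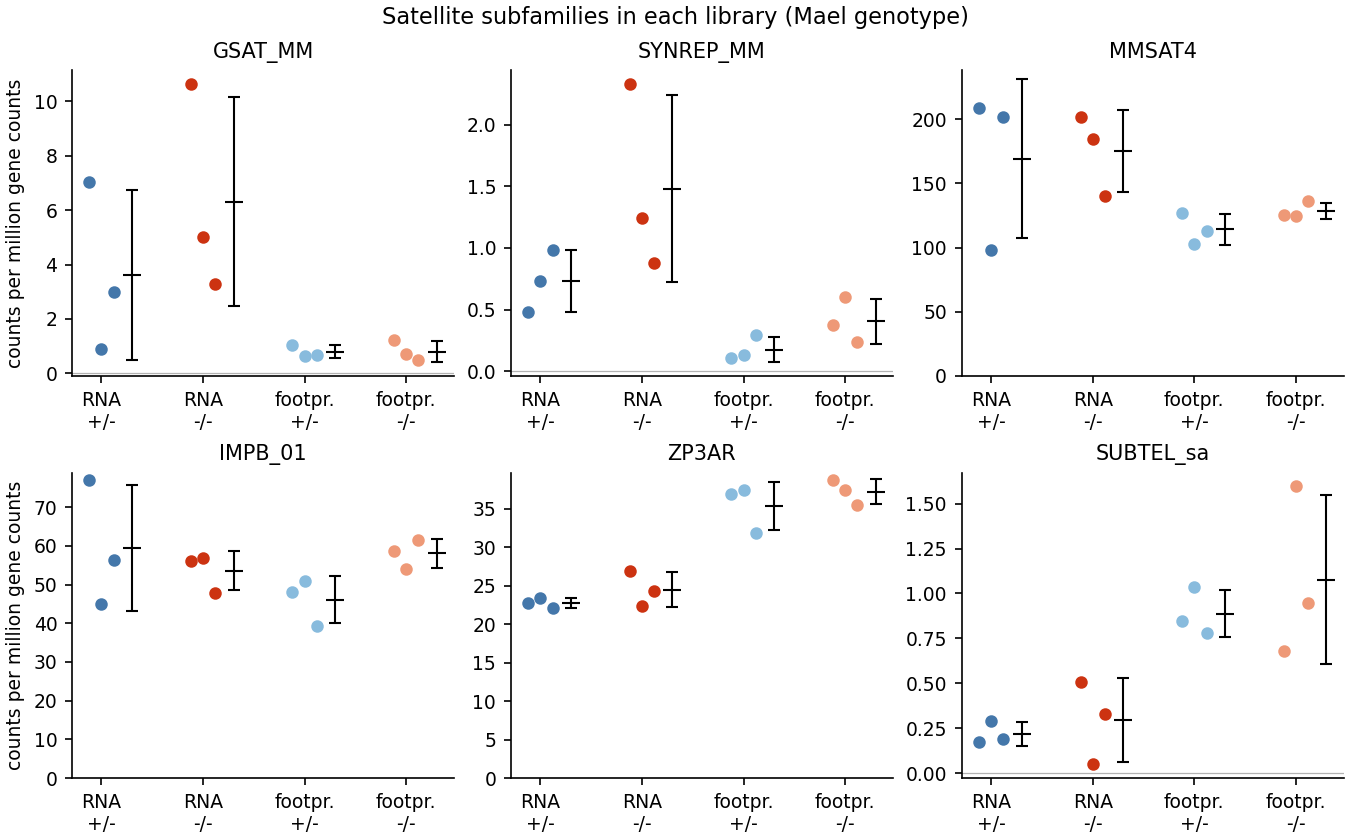
Level of 6 satellite subfamilies in each library, in CPM on linear axes. Points are the 3 libraries of a group in the order of their replicate numbers, and the black bar beside them is the mean ± SD; GSAT_MM and SYNREP_MM are higher and more scattered in RNA than in footprints, while SUBTEL_sa and ZP3AR are higher in footprints.

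**Figure D2:**
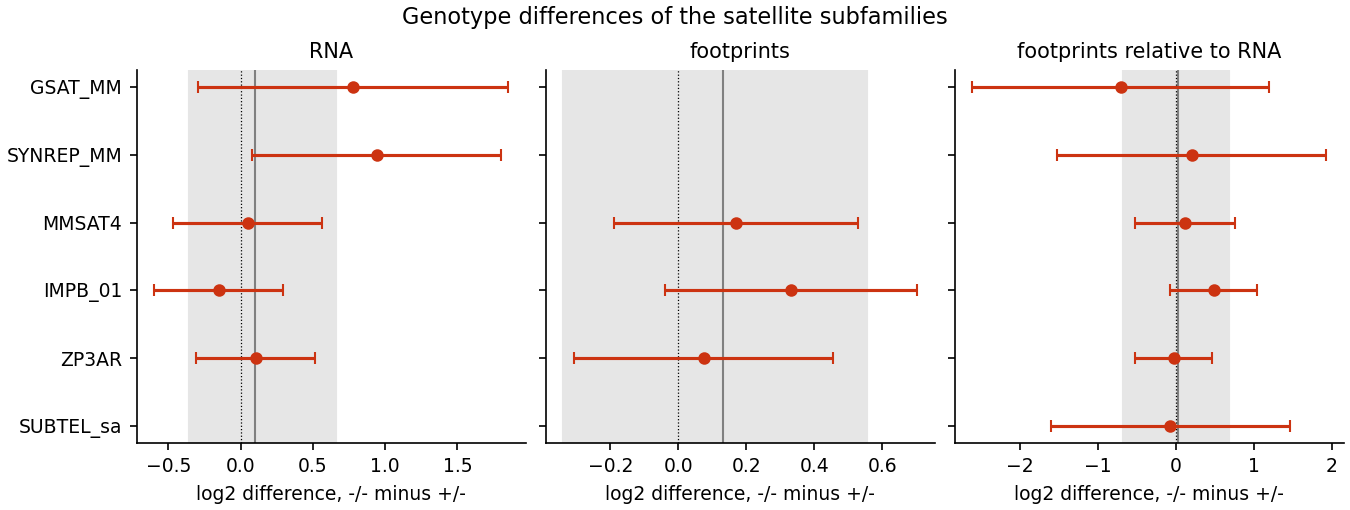
Log2 difference of Mael-/- minus Mael+/- for each satellite subfamily tested, in RNA, in footprints and in footprints relative to RNA. Points are edgeR estimates with 95% intervals, grey bands run from the 5th to the 95th percentile of all subfamilies tested and the grey line is their median; none was called, and SYNREP_MM and GSAT_MM lie beyond the band in RNA.

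In footprints relative to RNA the intervals of the scarce members were wide. The log2 difference was -0.71 for GSAT_MM (95% interval -2.62 to 1.195), 0.20 for SYNREP_MM (-1.52 to 1.93) and -0.07 for SUBTEL_sa (-1.599 to 1.46). It was 0.12 for MMSAT4, 0.48 for IMPB_01 and -0.03 for ZP3AR, and the edgeR adjusted p was 0.997 for all 6.

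The comparison of footprints with RNA over both genotypes set the footprint level of each satellite beside its RNA level. Per the methods the footprint fragments were shorter than the RNA reads. The part of read length in placing reads on similar copies was not tested. The centromeric satellites were far lower in footprints than in RNA, MMSAT4 was lower, and ZP3AR and SUBTEL_sa were higher. Of 6 subfamilies 5 were called, beside 63.1% of all 1148 subfamilies tested, so a call in this comparison is common and the sizes carry the description. The median over all subfamilies was 0.46 higher in footprints on the log2 scale, and with libraries scaled by repeat counts it was -0.08. Of the 724 subfamilies called, 79.8% were higher in footprints when libraries were scaled by gene counts and, of 732 called, 43.6% when they were scaled by repeat counts.

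For ratios by extract, RNA and footprint libraries of the same number were taken as pairs, which their correlations did not settle in Mael-/-. GSAT_MM was lower in footprints than in RNA in each of the 6 extracts, with ratios of footprint CPM to RNA CPM of 0.151, 0.737 and 0.229 in Mael+/- and 0.114, 0.140 and 0.145 in Mael-/-. Mael+/- extract 2 had the highest ratio, and it was the extract with the least GSAT_MM RNA. The log2 difference of footprints minus RNA was -2.51 (SE 0.42, edgeR adjusted p = 1.44e-05), a ratio of 0.176, and only 5 of the 1148 subfamilies lay lower. SYNREP_MM was also lower in 6 of 6 extracts, with ratios of 0.162 to 0.483 (log2 difference -1.87, SE 0.42, edgeR adjusted p = 0.000396). MMSAT4 was lower in 5 of 6 extracts, with ratios of 0.560 to 1.05 (log2 difference -0.51, SE 0.16, edgeR adjusted p = 0.0065).

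ZP3AR was higher in footprints in 6 of 6 extracts, and its ratios were close to each other, 1.62, 1.6 and 1.44 in Mael+/- and 1.44, 1.68 and 1.46 in Mael-/-. Its log2 difference was 0.62 (SE 0.12, edgeR adjusted p = 8.37e-05), near the median of all subfamilies, and with libraries scaled by repeat counts it was 0.07 (edgeR adjusted p = 0.518). IMPB_01 had ratios of 0.624 to 1.28 and was not called (log2 difference -0.13, edgeR adjusted p = 0.428), but on the scale of repeat counts it was lower in footprints by a log2 difference of -0.67 (edgeR adjusted p = 2.59e-06). SUBTEL_sa was higher in footprints in 6 of 6 extracts, with a log2 difference of 1.93 (SE 0.40, edgeR adjusted p = 0.000185). Its highest ratio, 32.2 in Mael-/- extract 2, rested on 1 RNA count. The direction of GSAT_MM, SYNREP_MM, MMSAT4 and SUBTEL_sa was the same under both scalings.

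**Figure D3:**
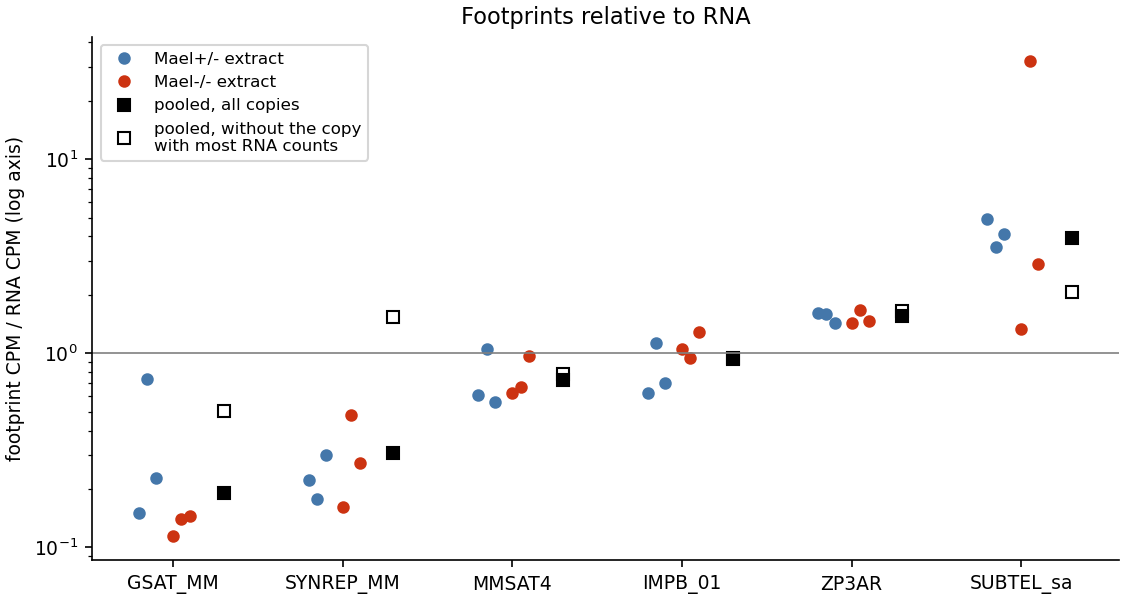
Ratio of footprint CPM to RNA CPM for 6 satellite subfamilies, on a log axis. Circles are the 6 extracts, filled squares the ratio of pooled counts, and open squares the same without the copy of the subfamily that had the most RNA counts; the pooled ratio of SYNREP_MM moved from 0.305 to 1.53 and that of GSAT_MM from 0.190 to 0.507.

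The low ratios of the centromeric satellites came largely from a single copy of each. GSAT_MM_4 held 59.4% of all GSAT_MM counts, with 113, 13 and 57 RNA counts in Mael+/-, 79, 66 and 57 in Mael-/-, and 2 footprint counts in all 6 libraries. SYNREP_MM_12 held 72.4% of the SYNREP_MM counts, with 10, 15 and 18 RNA counts in Mael+/-, 29, 23 and 17 in Mael-/-, and 1 footprint count. These copies were picked after their values were seen, as were all copies named below outside the 10 with the most counts. Without GSAT_MM_4 the pooled ratio was 0.507 and the log2 difference -1.06 (SE 0.42, edgeR adjusted p = 0.0284). Without SYNREP_MM_12 there were 26 RNA counts and 17 footprint counts left, a pooled ratio of 1.53, and SYNREP_MM no longer passed the filter, so its lower level in footprints was that of 1 copy. SUBTEL_sa_12 likewise held 64.8% of its subfamily, with 17 RNA counts and 42 footprint counts, and SUBTEL_sa could not be tested without it. MMSAT4 remained lower without its leading copy (log2 difference -0.41, edgeR adjusted p = 0.0217).

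The other satellites spread their counts in different ways. In MMSAT4 15 of the 503 counted copies were enough to hold the larger part of the counts, while in ZP3AR it took 59 of 763 and in IMPB_01 264 of 3146. In IMPB_01 1699 copies had a single count. The 10 copies with the most counts over all satellites were all MMSAT4 and held 28.2% of the satellite counts. The leading copy, MMSAT4_1125, had 620, 195 and 638 RNA counts in Mael+/- and 270, 424 and 383 in Mael-/-, and 54, 31 and 51 footprint counts against 85, 42 and 60. In CPM the Mael+/- RNA library 2 was lowest (7.13) and the other 5 RNA libraries lay between 14.0 and 26.9. MMSAT4_607, the second, was steadier, at 11.8 to 17.2 CPM in Mael+/- RNA and 14.6 to 16.3 CPM in Mael-/- RNA.

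Copies of the same subfamily differed widely in footprints relative to RNA. Among the 10 leading copies the pooled ratio ran from 0.0302 in MMSAT4_271, which had 465 RNA counts and 6 footprint counts, to 1.62 in MMSAT4_714, which had 431 and 299. MMSAT4_271 was at 4.55, 1.06 and 5.29 CPM in Mael+/- RNA and 2.98, 4.06 and 2.48 CPM in Mael-/- RNA, and no footprint library of either genotype had more than 2 counts. Its log2 difference of footprints minus RNA was -5.03 (SE 0.50, edgeR adjusted p = 9.91e-11). MMSAT4_714 was higher in footprints (log2 difference 0.58, SE 0.23, edgeR adjusted p = 0.0198), a call that was lost when any of 4 libraries was left out (adjusted p up to 0.0743). Of 85 satellite copies tested 64 were called, 27 higher and 37 lower in footprints, beside 84.3% of all 14013 repeat copies tested. Across the 503 counted MMSAT4 copies the Pearson correlation of log2(count + 1) between the assays was 0.51, across 763 ZP3AR copies 0.35 and across 3146 IMPB_01 copies 0.06. These points share libraries and most of them rest on few counts.

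Some copies were seen in a single assay. There were 57 satellite copies with at least 10 footprint counts and 0 RNA counts, 36 of them MMSAT4, 13 IMPB_01 and 8 ZP3AR, and they held 1568 footprint counts. The highest was ZP3AR_776, with 22, 10 and 13 footprint counts in Mael+/- and 23, 21 and 15 in Mael-/-, at least 81.1-fold higher in footprints than the limit of 3 counts over the 6 RNA libraries. All 6 footprint libraries held it at like levels in both genotypes. MMSAT4_1485 had 2 RNA counts and 185 footprint counts. In the other direction 41 copies had at least 10 RNA counts and 0 footprint counts, and the highest was MMSAT4_1286 with 42 RNA counts. At a minimum of 15 footprint counts, 41 of 142 satellite copies (28.9%) had 0 RNA counts, beside 20.3% of 31231 repeat copies. How reads with several possible places were shared among copies is not stated for these RNA and footprint libraries, and its part in these copies was not tested.

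**Figure D4:**
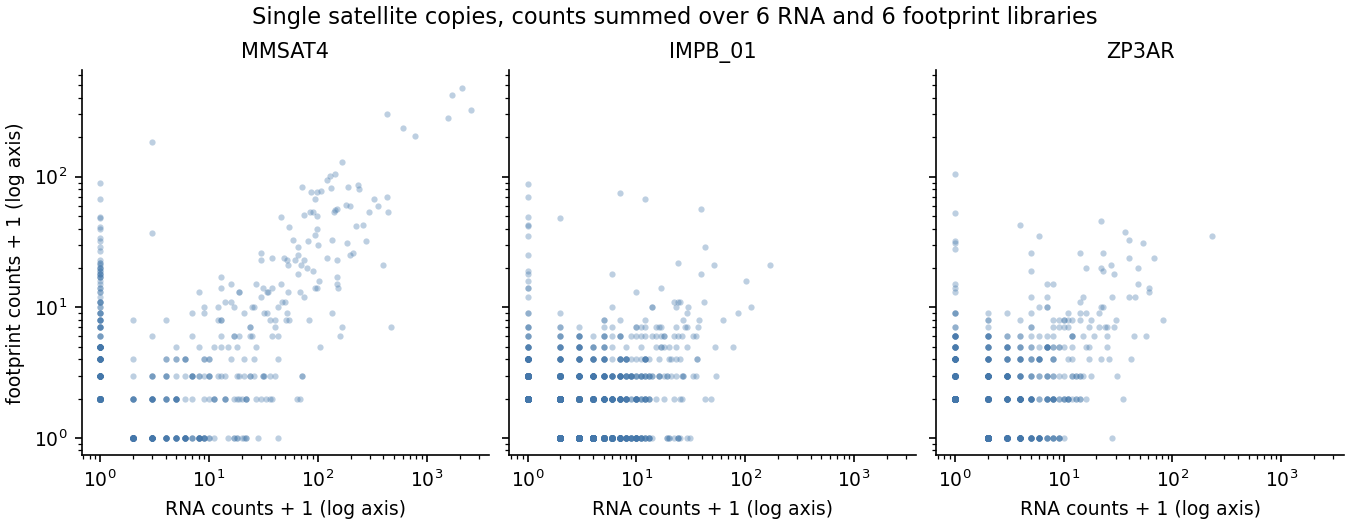
Counts of single satellite copies, summed over the 6 RNA libraries (x axis) and the 6 footprint libraries (y axis), with 1 added and both axes on a log scale. Each point is a copy with at least 1 count; the column of points at the left edge holds copies with 0 RNA counts, among them ZP3AR_776 with 104 footprint counts.

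Between genotypes a single satellite copy was called. In footprints 1 of 36 satellite copies tested passed, beside 0.817% of 5511 repeat copies, and DESeq2 called 1 as well. This was IMPB_01_15891, which had 0, 0 and 0 footprint counts in Mael+/- and 26, 22 and 26 in Mael-/-, at least 21.3-fold higher than the limit of 3 counts over the Mael+/- group (edgeR adjusted p = 8.08e-05). Its RNA counts were 1, 0 and 0 in Mael+/- and 1, 3 and 1 in Mael-/-, too few to test. The copy passed the filter on low counts only through its Mael-/- footprint libraries. The call held when each of the 6 footprint libraries was left out in turn, with edgeR adjusted p of 2.85e-05 to 0.00035. These fits reuse the same counts and add no independent support. IMPB_01_15890, the copy with the preceding number, had 0 footprint counts in the 3 Mael+/- libraries, 5, 4 and 4 in Mael-/- and 0 RNA counts. It was too low to test and was picked after its values were seen. Its place in the genome is not given, and it adds no support to the call. Counting IMPB_01_15891 itself, 2 of the 5 IMPB_01 copies tested in footprints were higher in Mael-/- and 3 were lower. The log2 differences of the others ran from -0.42 to 0.38, and none of them was called.

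In RNA 0 of 94 satellite copies were called, with 2 at an unadjusted p under 0.05, and DESeq2 also called 0. Of 16710 repeat copies 1.62% were called, and 1526 had an unadjusted p under 0.05. SYNREP_MM_12 (log2 difference 1.12, edgeR adjusted p = 0.295) and GSAT_MM_14 (1.21, edgeR adjusted p = 0.514) were the satellite copies lowest in p. Without Mael+/- RNA replicate 1, 3 of 113 satellite copies were called, beside 520 of 22644 repeat copies. They were GSAT_MM_4 (log2 difference 1.45, edgeR adjusted p = 0.00437), GSAT_MM_14 (2.04, edgeR adjusted p = 0.0429) and MMSAT4_974 (3.67, edgeR adjusted p = 0.0254). Without Mael+/- RNA replicate 2, 1 of 107 satellite copies was called, beside 365 of 20702 repeat copies. This was MMSAT4_1519, lower in Mael-/- (-1.37, edgeR adjusted p = 0.0424). Of the 80 MMSAT4 copies tested, 50 were higher and 30 lower in Mael-/- with a median log2 difference of 0.07, and the median of all copies was 0.12.

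Genes for proteins that act at satellite chromatin were listed beside these results. The 25 genes of pericentromeric heterochromatin include Suv39h1 and Suv39h2, the methyltransferases of histone H3 that mark it, and Atrx and Daxx, a chromatin remodeller and histone chaperone pair. The 23 genes of centromere chromatin include Cenpa, the centromeric histone, and Cenpb, which binds the CENP-B box. None of the 48 tested in RNA was called by edgeR, with 0 at an unadjusted p under 0.05. Of all 14647 genes 0.116% were called, and 790 had an unadjusted p under 0.05. In footprints none of the 46 listed genes tested was called, with 0 unadjusted. Of all 13500 genes 0.0593% were called there, and 585 had an unadjusted p under 0.05. DESeq2 called 0 of the listed genes in both. Their log2 differences lay between -0.25 and 0.26 in RNA, and between -0.28 and 0.23 in footprints. Suv39h1 RNA was at 111, 121 and 99.7 CPM in Mael+/- and 110, 122.7 and 114 CPM in Mael-/-.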

How the data were processed

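The members and gene lists were chosen with earlier results of these data known. Per the labels and the methods, the authors treated testis extracts with cycloheximide, made stranded, ribosomal RNA-depleted libraries from part of each extract and footprints from the rest with micrococcal nuclease, removed ribosomal DNA reads (Bowtie 1.2.2), mapped to mm10 (STAR 2.6.0c) and counted with featureCounts (Subread 1.6.4), over mRNAs for RNA and coding sequence for footprints. In another experiment of the study, repeat reads with several possible places were reassigned with Telescope; for these RNA and footprint libraries the methods state neither how repeats were counted nor whether duplicates were collapsed, so limits cover counting error only. The deposited table holds raw counts, without normalization, for 20620 genes and 5138235 repeat copies. The deposited result tables (the authors' fold changes and p-values from DESeq2 1.24.0) were not used.

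Counts were summed by subfamily and tested with the edgeR 4.0.16 quasi-likelihood F-test (R 4.3.3) over all subfamilies passing filterByExpr, with gene totals and TMM factors of the genes within each assay and Benjamini-Hochberg adjustment over all of them. In footprints edgeR estimated a common spread for all subfamilies. Single copies with at least 15 counts over the 12 libraries were fitted in the same way. Class sums were compared with exact permutation tests. Alternatives were DESeq2 1.42.0, no filter, repeat totals as library size, a replicate block, leaving out each library and, chosen after seeing the data, leaving out the leading copy of each subfamily. All tests of single copies were also added after seeing the data. Scripts were tested on simulated data. Per the design text the replicates are biological. Subfamilies with a mean of at least 10 counts a library, the scarcer members, and the 10 copies with the most counts were named. The tandem search compared seeds of 16 bases in windows of 2000 bases. The copies' overlap with genes was not analysed here.

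Per the methods RNA and footprints came from parts of the same extracts, and libraries of the same number within a genotype were taken as pairs. Over 14374 genes their deviations from the group means correlated at 0.591 to 0.753 in Mael+/- and at 0.205 to 0.227 in Mael-/-. A block on the extract changed no call of a satellite subfamily. Of the single satellite copies tested between footprints and RNA, 66 in place of 64 were called with it. Across genotypes the numbers mark no stated pairing, and correlations were -0.012 to 0.195. The Mael-/- values lay little above these, so the correlations do not settle which Mael-/- libraries share an extract.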

Additional observations from a re-analysis of the deposited data

How the results depend on the processing

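With a replicate block across genotypes, whose numbers did not pair the samples by the check of their correlations, 1 satellite subfamily was called in RNA (GSAT_MM, log2 difference 0.93, edgeR adjusted p = 0.00714) against 0 without it, and over all subfamilies 39 were called in RNA against 10; the block across genotypes changed no footprint call. Leaving out each library gave 0 to 1 satellite subfamilies and 0 to 3 single copies called in RNA. Leaving out the leading copy of each subfamily, 3 of 4 tested subfamilies differed between footprints and RNA in place of 5 of 6, because SYNREP_MM and SUBTEL_sa fell below the filter. Scaling by repeat counts turned the uncalled differences of MMSAT4 in RNA (-0.025), ZP3AR in RNA (-0.0068) and ZP3AR in footprints (-0.061), and the difference of the summed RNA of all satellites (-278.3 in parts of 1000000 repeat counts) and of the other satellites (-305.3). When single libraries were left out, uncalled differences near 0 changed sign: IMPB_01 in RNA (-0.31 to 0.080), MMSAT4 in RNA (-0.23 to 0.23), and, in footprints relative to RNA, MMSAT4 (-0.056 to 0.40), SUBTEL_sa (-0.57 to 0.37), SYNREP_MM (-0.15 to 0.81) and ZP3AR (-0.099 to 0.045). The cause was not tested. Over all subfamilies, 8 to 18 in RNA and 5 to 44 in footprints were called when a library was left out, and over all copies in RNA 193 to 520. By scaling, 17 subfamilies were called in RNA and 7 in footprints with repeat counts, against 10 and 19, and DESeq2 called 10 in footprints. Restricting to copies outside genes was not run, because the table gives no positions. Depth limits the centromeric satellites, whose footprint counts were 49 and 18 in 6 libraries.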
